A study of Mus musculus with 28 samples.

Results

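The interleukin 1 (IL-1) family is described here through 9 genes chosen by name: the cytokines *Il1a*, *Il1b*, *Il33*, and *Il18*, the receptor antagonist *Il1rn*, the signalling receptor subunits *Il1r1*, *Il1rap*, and *Il1rl1*, and the decoy receptor *Il1r2*. These are 9 of the 56980 genes in the bulk count table, and all 9 were among the 12673 genes that were tested. They were followed in a mouse carotid–jugular arteriovenous fistula (AVF), in which the end of the jugular vein is sewn to the side of the carotid artery so that the vein carries arterial flow.

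Bulk RNA sequencing measured 25 single vessels, namely 7 jugular veins of the other side (contralateral veins) and 18 AVFs, 8 at the early, 5 at the mid, and 5 at the late time, with nominal harvests 3, 10, and 21 days after surgery. All animals were C57BL/6 mice of both sexes, and every one of them, those that gave the control veins included, had first undergone a subtotal nephrectomy and then AVF surgery, so the contralateral veins are not veins of untouched mice. The sexes were 5 female and 2 male among contralateral veins, 3 female and 5 male among early AVFs, and 3 female and 2 male in each of the mid and late groups. Single-cell RNA sequencing measured 3 more libraries, each a pool of vessels from mice of both sexes, 1 for contralateral veins, 1 for early AVFs, and 1 for late AVFs. The single-cell vessels may have been taken on other days than the nominal bulk harvests, so early and late are not matched in time between the 2 assays.

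IL-1α and IL-1β bind the receptor encoded by *Il1r1*, which signals together with the accessory protein encoded by *Il1rap* through MyD88 to NF-κB. The antagonist encoded by *Il1rn* occupies the same receptor without signalling, and the protein encoded by *Il1r2* binds IL-1 but lacks the signalling domain. IL-33 signals through ST2, the product of *Il1rl1*, again with the accessory protein, while IL-1β and IL-18 are made as precursors that caspase-1 cleaves. In injured vessels these cytokines are known as early signals of leukocyte recruitment and of fibroblast and smooth muscle activation.

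Counts summed to between 20254200 and 67457500 per library, and the groups differed more in detection than in depth. Of the genes tested, from 2.86% to 22.5% had no count in a contralateral vein, against 0.11% to 4.70% in an early AVF and at most 0.300% in a mid or late AVF. Contralateral veins 28, 31, 34, and 632 had over 10% of the tested genes at 0, and early AVFs 5 and 6 over 2%, so results that rest on them are also given without them. Bulk levels are given as CPM, the usual scaling of counts to library size, with TMM factors. A gene was called when its adjusted *p* in edgeR's quasi-likelihood test was under 0.01 and its absolute log2 fold change at least 1.

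The promoter windows of the 3 genes called higher in early AVFs are shown first, with that of *Il1r2*, which was called lower in late AVFs. Each is the 250 bases before the annotated start in RefSeq on GRCm38.p6, on the gene's own strand, with the base next to the start last. *Il1a* (chr2:129309973-129310222, minus strand) and *Il1b* (chr2:129371140-129371389, minus strand) are neighbors on chromosome 2, *Il1rn* lies elsewhere on the same chromosome (chr2:24336610-24336859, plus strand, the first of 3 annotated starts), and *Il1r2* is on chromosome 1 (chr1:40085843-40086092, plus strand). Capitals mark the letters TATAAA and TGANTCA (N is any base), searched on both strands together with a κB motif known by that name.
Il1a: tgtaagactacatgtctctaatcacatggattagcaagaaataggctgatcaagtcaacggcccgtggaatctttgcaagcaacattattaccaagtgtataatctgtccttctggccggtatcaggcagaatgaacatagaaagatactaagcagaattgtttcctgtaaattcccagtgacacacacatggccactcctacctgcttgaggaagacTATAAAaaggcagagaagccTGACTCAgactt
Il1b: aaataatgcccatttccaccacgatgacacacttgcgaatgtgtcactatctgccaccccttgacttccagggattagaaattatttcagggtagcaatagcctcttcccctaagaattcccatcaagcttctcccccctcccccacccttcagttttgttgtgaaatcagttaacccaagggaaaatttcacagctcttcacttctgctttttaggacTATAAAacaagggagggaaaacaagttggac
Il1rn: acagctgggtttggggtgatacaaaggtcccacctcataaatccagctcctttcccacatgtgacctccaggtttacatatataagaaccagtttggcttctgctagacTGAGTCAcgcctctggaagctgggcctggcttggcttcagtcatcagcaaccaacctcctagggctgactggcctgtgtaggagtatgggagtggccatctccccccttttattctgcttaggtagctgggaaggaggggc
Il1r2: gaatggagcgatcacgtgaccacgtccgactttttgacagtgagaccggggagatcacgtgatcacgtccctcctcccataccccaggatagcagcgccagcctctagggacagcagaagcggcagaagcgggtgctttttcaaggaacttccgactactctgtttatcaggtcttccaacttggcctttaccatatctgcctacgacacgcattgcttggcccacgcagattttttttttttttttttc

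TATAAA was found from 32 to 27 bases before the start of *Il1a* and from 31 to 26 bases before that of *Il1b*, and TGANTCA from 12 to 6 bases before the start of *Il1a* and from 141 to 135 bases before that of *Il1rn*. None of these matches overlapped another. Of 32851 promoter windows of the same length, 12.37% held TATAAA, 6.75% TGANTCA, and 7.25% the κB motif. Over the 14 windows of the 9 genes, 5 held TATAAA (*Il1a*, *Il1b*, both starts of *Il33*, and *Il18*), 2 held TGANTCA, and 1 held the κB motif, in a second start of *Il1r1*. These matches describe letters in a window and nothing more.

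Of the 9 genes, 3 were called higher in early AVFs than in contralateral veins and none lower, where 12.6% of all genes tested were called either way and 6.17% higher. In mid AVFs 2 were called higher (6.05% of all genes either way, 2.74% higher), and in late AVFs 2 were called higher and 1 lower (5.33% either way, 2.49% higher). The median log2 fold change of the 9 genes was 0.67 for early, 0.19 for mid, and 0.04 for late AVFs, against -0.01, -0.10, and -0.09 over all genes. The 3 comparisons share the same 7 contralateral veins. *Il1a* and *Il1rn*, called higher in each of them, passed the filter on low counts only through the AVFs, where they were high.

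**Figure D1:**
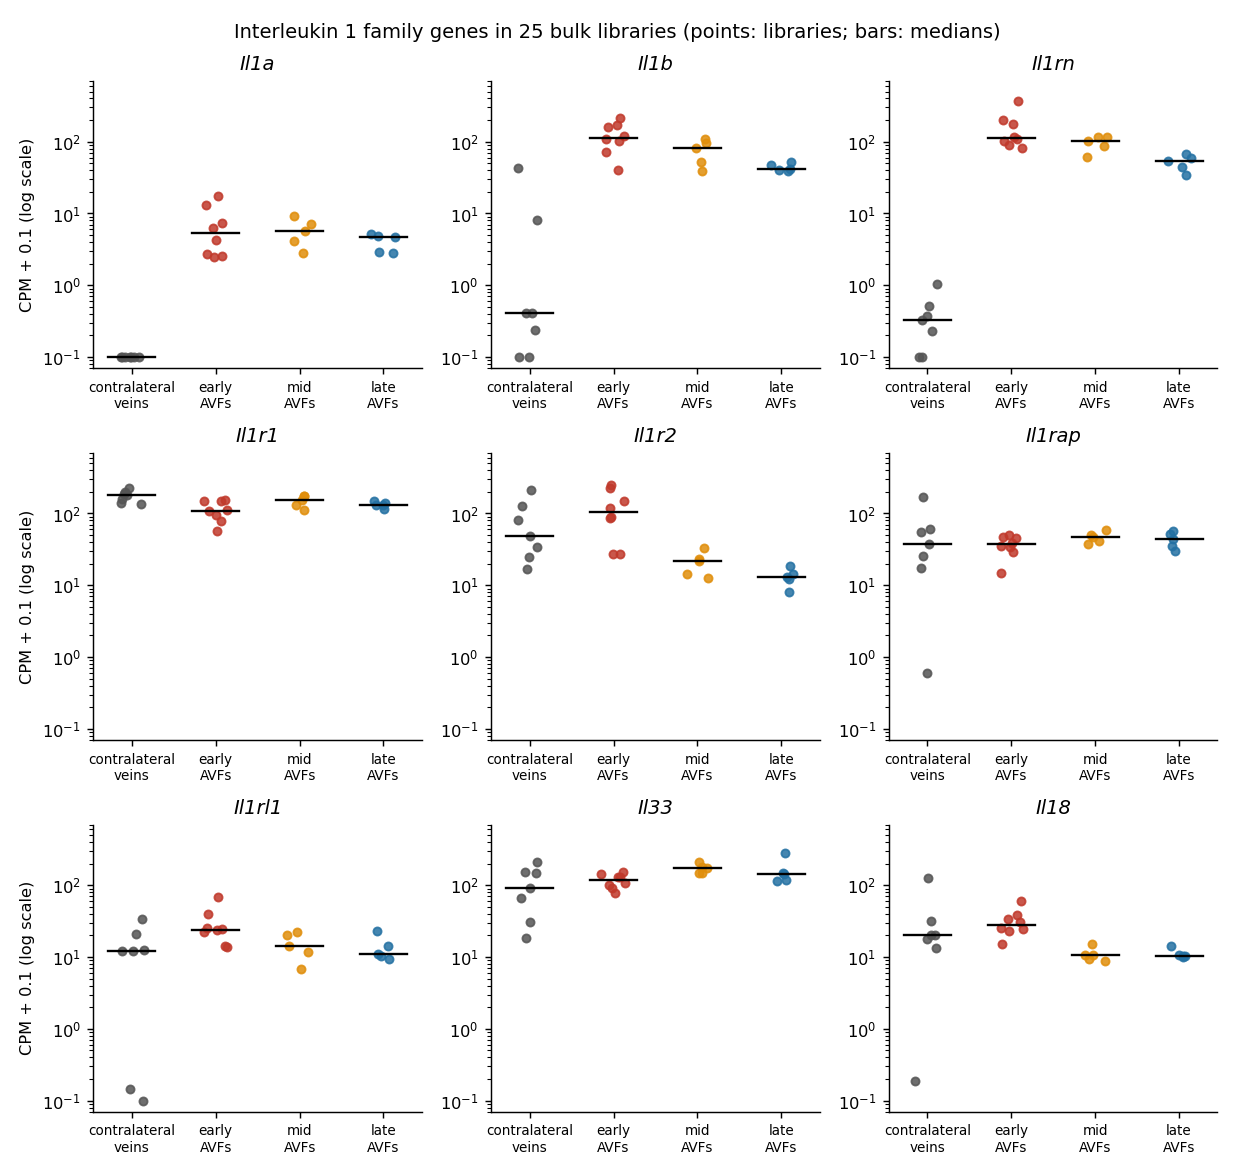
CPM of each of the 9 genes on a log axis, 1 point per vessel, by group (contralateral, early, mid, late), with 0.1 added to each value so that vessels without a count can be drawn, and a bar at the group median. *Il1a* and *Il1rn* separate all 18 AVFs from all 7 contralateral veins, *Il1r2* is lowest in late AVFs, and the contralateral veins spread widely for *Il1b*, *Il1rap*, *Il33*, and *Il18*.

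*Il1a*, which encodes IL-1α, an alarmin that is active without processing, had no count in any of the 7 contralateral veins and was detected in all 18 AVFs. The 8 early AVFs ranged from 2.39 to 17.4 CPM (median 5.16), the mid AVFs were at 2.71, 4.03, 5.51, 7.11, and 9.00 CPM, and the late AVFs at 2.74, 2.79, 4.57, 4.79, and 5.04 CPM. Every AVF was thus above every contralateral vein, and the 3 AVF groups overlapped. Against a floor of 3 counts per library in the contralateral veins (0.129 CPM), the means of 6.93 ± 5.51 CPM in early, 5.67 ± 2.48 CPM in mid, and 3.99 ± 1.13 CPM in late AVFs (SD) were 53.9-fold, 44.1-fold, and 31.0-fold higher. The floor covers counting only, and many tested genes had no count in these veins, so these folds are not lower bounds.

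The difference of *Il1a* from contralateral veins was called at each time point by edgeR (adjusted *p* = 1.60e-07, 6.61e-07, and 1.77e-06). With no count in the 7 veins, the gene passed the filter on low counts only through the AVFs, where it was high, so a difference was built into its being tested. By limma voom with quality weights, which lets single libraries vary more than others, none of the 3 passed (adjusted *p* = 0.102, 0.121, and 0.136). *Il1a* shares 222 exon bases with *Gm14023* on the opposite strand, and whether the counting used strand is not given in the sources used here.

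*Il1b* encodes IL-1β, the form secreted after cleavage. The contralateral veins were uneven: 2 had no count, 3 were at 0.140, 0.313, and 0.316 CPM, vein 31 was at 7.88 CPM, and vein 34 was at 43.4 CPM. Early AVFs ranged from 40.1 to 213 CPM (median 114), mid AVFs were at 39.3, 52.3, 82.8, 96.1, and 109.7 CPM, and late AVFs at 38.8, 40.0, 41.4, 46.8, and 51.7 CPM. Vein 34 alone reached into the AVF range, and 7 of 8 early, 4 of 5 mid, and 2 of 5 late AVFs were above it.

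*Il1b* rose in early AVFs, from 7.43 ± 16.1 CPM to 123 ± 56.5 CPM (SD, n = 7 and n = 8), which edgeR put on the log2 scale at 4.05 (SE 1.07, adjusted *p* = 0.00651). It was not called in mid AVFs, at 3.35 (SE 1.09, adjusted *p* = 0.0417), nor in late AVFs, at 2.56 (SE 1.06, adjusted *p* = 0.124). The early call was lost when any 1 of contralateral veins 27, 31, 35, and 632 or of early AVFs 4, 5, and 6 was left out, with adjusted *p* values of at most 0.0127. By edgeR it was also lost in female mice (adjusted *p* = 0.171) and with only the 2 groups in the fit (0.0499). Limma voom with quality weights did not call it either (adjusted *p* = 0.148). Leaving out vein 34 instead raised the early log2 fold change to 6.42 (adjusted *p* = 4.66e-05) and brought *Il1b* past the threshold in mid (5.72, adjusted *p* = 0.000384) and late AVFs (4.92, adjusted *p* = 0.00149). Without the 4 sparse veins, edgeR gave 9.68, 8.98, and 8.19 for the 3 time points (adjusted *p* = 2.35e-08, 1.35e-07, and 4.49e-07), and without the 2 sparse early AVFs the early value was 3.84 (adjusted *p* = 0.0202).

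*Il1rn*, the antagonist, was close to absent from the contralateral veins, which were at 0, 0, 0.131, 0.227, 0.277, 0.414, and 0.946 CPM. Early AVFs ranged from 81.2 to 369.6 CPM (median 112), mid AVFs were at 60.3, 86.8, 101, 117, and 118 CPM, and late AVFs at 33.7, 43.8, 53.1, 59.5, and 66.7 CPM. Every AVF exceeded every contralateral vein, and every late AVF was below every early AVF.

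The mean of *Il1rn* went from 0.285 ± 0.328 CPM in contralateral veins to 155 ± 96.0 CPM in early AVFs, 96.5 ± 23.9 CPM in mid AVFs, and 51.4 ± 13.0 CPM in late AVFs (SD). It rose at each time point by edgeR, the log2 fold changes being 9.01 (SE 0.69, adjusted *p* = 6.43e-10), 8.33 (SE 0.68, adjusted *p* = 7.89e-09), and 7.42 (SE 0.66, adjusted *p* = 4.05e-08). With at most 27 counts in a vein, *Il1rn* passed the filter on low counts only through the AVFs, where it was high. A difference was thus built into its being tested, as for *Il1a*. The call held in each fit that left out 1 library, and by limma voom with quality weights none of the 3 passed (adjusted *p* = 0.0334, 0.0512, and 0.0821). Between early and late AVFs the log2 fold change was -1.59 (SE 0.54, adjusted *p* = 0.0795), short of the threshold by edgeR, and DESeq2 called it (-1.57, adjusted *p* = 0.00794).

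*Il1a* and *Il1rn* were the 2 members whose early AVFs were all above the contralateral veins, as were 4.47% of all genes tested. The same 2 were above the veins throughout in mid (7.32% of all genes) and in late AVFs (6.25%). Both passed the filter on low counts only through the AVFs, so a difference was built into their being tested. The shares of all genes are therefore no measure of this separation. Levels of markers of the leukocytes that carry these transcripts are set beside them here. The summed level of 7 neutrophil markers ranged from 4.68 to 178 CPM (median 46.6) in the veins. It was 245 to 4455 CPM (median 1452) in AVFs of the early, 133 to 373 CPM (median 353) of the mid, and 111 to 261 CPM (median 158) of the late group, and 5, 2, and 2 of the 6 markers tested were called higher than in the veins.

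The summed level of 8 mono/macrophage markers ranged from 682 to 2447 CPM (median 1634) in the veins. It was 3254 to 11649.6 CPM (median 5480.0) in AVFs of the early, 2604 to 3603 CPM (median 3026) of the mid, and 2075 to 3962 CPM (median 3289.8) of the late group, and 7, 0, and 0 of the 8 were called higher. Endothelial and smooth muscle markers were lower in all AVF groups (4, 5, and 4 of 7, and 5 of 6 each time), and all 4 skeletal muscle markers were higher. Their part in the result was not tested. In a bulk vessel, fewer cells of a type and less RNA per cell cannot be told apart.

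*Il33* encodes an alarmin kept in the nuclei of stromal and barrier cells. It was at 18.4, 31.2, 65.5, 93.0, 146, 155, and 210.4 CPM in contralateral veins, and ranged from 76.8 to 151 CPM (median 119.6) in early AVFs. Mid AVFs were at 147, 150.1, 176, 179, and 211 CPM and late AVFs at 115, 119, 145, 147, and 279.9 CPM. The veins spanned every early AVF and overlapped with the mid and late AVFs, and no comparison with them was called by edgeR, at 0.19 (SE 0.35, adjusted *p* = 0.759), 0.75 (SE 0.39, adjusted *p* = 0.235), and 0.65 (SE 0.39, adjusted *p* = 0.323). Without the 4 sparse veins the early difference changed sign (-0.29, adjusted *p* = 0.481).

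*Il18*, whose product acts with IL-12 on T and NK cells, was at 0.0876, 13.4, 17.7, 19.9, 20.1, 32.2, and 124 CPM in contralateral veins, with vein 34 the highest and vein 31 the lowest. Early AVFs ranged from 15.3 to 59.4 CPM (median 28.2), while mid AVFs were at 8.76, 9.24, 10.5, 10.6, and 15.2 CPM and late AVFs at 10.0, 10.2, 10.4, 10.5, and 14.4 CPM. All 10 mid and late AVFs were below every early AVF. By edgeR, *Il18* was not called against early AVFs at either time, at -1.53 (SE 0.72, adjusted *p* = 0.364) and -1.503 (SE 0.72, adjusted *p* = 0.306), nor against the veins, at -0.05 (SE 0.62, adjusted *p* = 0.969), -1.58 (SE 0.74, adjusted *p* = 0.173), and -1.55 (SE 0.74, adjusted *p* = 0.188).

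*Il18* was called lower in late than in early AVFs in some other fits, with a log2 fold change of -1.501 (adjusted *p* = 0.00174) without the 4 veins and of -1.34 (adjusted *p* = 6.73e-06) by limma voom with quality weights. Leaving out vein 34 alone moved the mid comparison with the veins from -1.58 to -0.65 and the late one from -1.55 to -0.62, neither called. The early comparison with the veins changed sign without the 4 sparse veins (0.83, adjusted *p* = 0.0537).

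**Figure D2:**
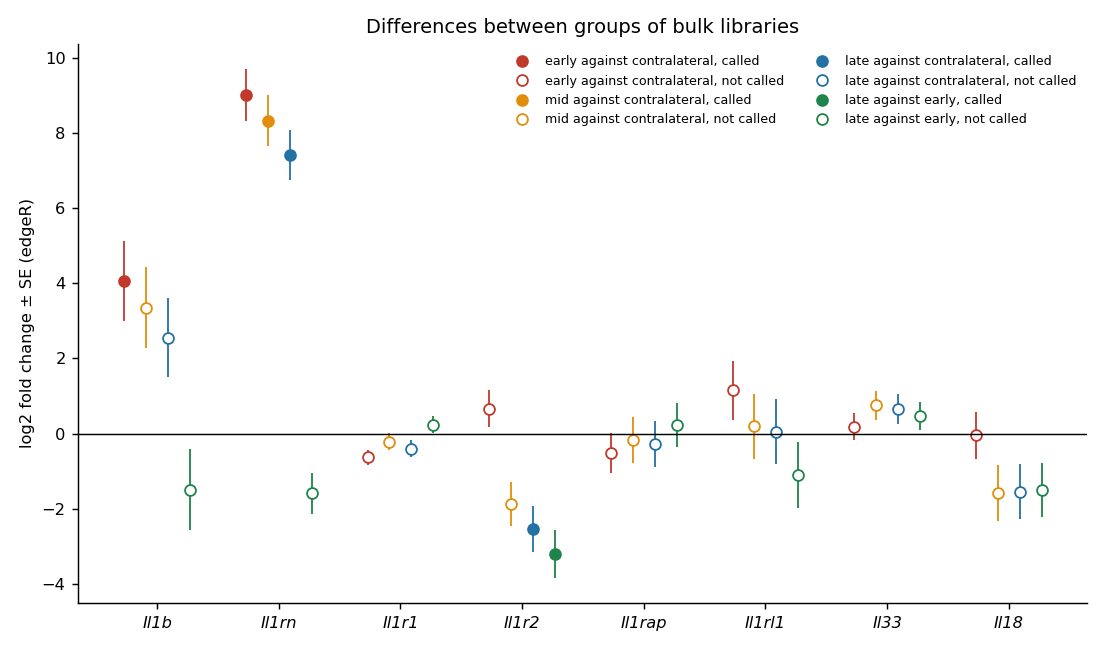
Log2 fold change by edgeR (vertical axis) of 8 of the 9 genes (horizontal axis) for early, mid, and late AVFs against contralateral veins and for late against early AVFs, with bars of 1 SE and filled symbols where the gene was called. *Il1a* is left out because the veins had no count. *Il1rn* lies at 9.01, 8.33, and 7.42, *Il1r1*, *Il1rap*, and *Il33* lie within 1 of 0, and *Il1r2* is filled on the lower side in late AVFs.

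*Il1r1*, the signalling receptor, was present in every vessel. Contralateral veins were at 133, 141, 161, 182, 185, 199.9, and 225 CPM, early AVFs ranged from 56.9 to 153 CPM (median 109.9), mid AVFs were at 112, 133, 156, 176, and 177 CPM, and late AVFs at 115, 129, 133, 139, and 147 CPM. The groups overlapped, with 5 of 8 early AVFs below the lowest vein. The means were 175 ± 32.7 CPM, 113 ± 35.8 CPM, 151 ± 28.3 CPM, and 133 ± 12.1 CPM (SD), and edgeR called none of the 3 differences from the veins, at -0.64 (SE 0.20, adjusted *p* = 0.0225), -0.22 (SE 0.23, adjusted *p* = 0.606), and -0.40 (SE 0.23, adjusted *p* = 0.293).

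*Il1rap*, the shared accessory subunit, was at 0.4997, 17.2, 25.8, 37.3, 55.0, 61.6, and 170.3 CPM in contralateral veins, a spread that enclosed every AVF. Early AVFs ranged from 14.8 to 50.2 CPM (median 37.3), mid AVFs were at 38.1, 40.7, 46.4, 50.8, and 59.0 CPM, and late AVFs at 30.2, 35.1, 43.8, 51.2, and 56.0 CPM. The differences from the veins by edgeR were -0.51 (SE 0.54, adjusted *p* = 0.543), -0.16 (SE 0.61, adjusted *p* = 0.912), and -0.28 (SE 0.61, adjusted *p* = 0.827), and all 3 changed sign when vein 31 was left out (0.13, 0.60, and 0.48, none called). *Il1rap* shares 552 exon bases with *Gm20319* on the opposite strand.

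*Il1rl1*, which encodes the IL-33 receptor ST2, was at 0, 0.0453, 11.9, 12.2, 12.6, 20.6, and 34.0 CPM in contralateral veins and ranged from 13.7 to 69.6 CPM (median 23.8) in early AVFs. Mid AVFs were at 6.72, 11.6, 14.2, 19.9, and 22.02 CPM and late AVFs at 9.19, 10.2, 11.1, 14.1, and 22.9 CPM. Early AVFs 5 and 6, both sparse libraries, were the only 2 above all contralateral veins, and edgeR called no difference from the veins, at 1.16 (SE 0.78, adjusted *p* = 0.319), 0.19 (SE 0.87, adjusted *p* = 0.928), and 0.04 (SE 0.87, adjusted *p* = 0.985).

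*Il1r2*, the decoy receptor, was called lower in late AVFs by edgeR, a call that other fits did not always keep. Contralateral veins were at 16.7, 24.4, 33.7, 47.7, 80.1, 125, and 209.6 CPM, early AVFs ranged from 26.9 to 248 CPM (median 104), mid AVFs were at 12.3, 14.4, 21.6, 23.3, and 33.4 CPM, and late AVFs at 7.91, 12.3, 13.0, 14.4, and 18.3 CPM. All 5 late AVFs and 4 of 5 mid AVFs were below every early AVF, and 4 of 5 late AVFs were below the lowest contralateral vein.

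Against early AVFs, the log2 fold change of *Il1r2* by edgeR was -3.21 (SE 0.63, adjusted *p* = 0.00354) in late and -2.53 (SE 0.60, adjusted *p* = 0.0163) in mid AVFs, of which the first was called. Against contralateral veins it was -2.54 (SE 0.61, adjusted *p* = 0.00652) in late AVFs, called, and 0.67 (SE 0.49, adjusted *p* = 0.370) and -1.87 (SE 0.59, adjusted *p* = 0.0368) in early and mid AVFs, not called. The late call against early AVFs was lost when any 1 late AVF was left out (adjusted *p* of at most 0.0182) or both sparse early AVFs (0.0107), and that against the veins when any 1 late AVF, vein 28, or vein 633 was left out (at most 0.0286). Over all fits with 1 library left out, the log2 fold changes lay between -3.38 and -2.93 against early AVFs and between -2.70 and -2.03 against the veins. Without the 4 sparse veins they were -3.21 (adjusted *p* = 0.00118) and -2.53 (adjusted *p* = 0.00528). In female mice neither late call held by edgeR (adjusted *p* = 0.237 against early AVFs and 0.214 against the veins). The call against the veins was also lost with only the 2 groups in the edgeR fit (adjusted *p* = 0.0469). It was lost by limma voom with quality weights as well (adjusted *p* = 0.123).

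Between time points, *Il1r2* was the 1 member called in late against early AVFs, where 3.01% of all genes were called. *Il1rn*, *Il1r2*, and *Il18* were the 3 members with all late AVFs below all early AVFs, against 8.39% of all genes. In mid against early AVFs edgeR called 0 of 9 (0.00789% of all genes), with 2 at an unadjusted *p* under 0.05, while DESeq2 called 1 and limma voom with quality weights 2. In late against mid AVFs edgeR called 0 of 9 (0% of all genes), with 0 at an unadjusted *p* under 0.05, and DESeq2 and limma voom also called 0. The median log2 fold change of the 9 genes was -0.68 in mid and -1.11 in late against early AVFs, against 0.00 and 0.01 over all genes.

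Each antagonist was then set against its partner within a vessel, as the log2 ratio of counts with 0.5 added. The ratio of *Il1rn* to *Il1b* was 0.31 ± 0.58 for early, 0.40 ± 0.30 for mid, and 0.20 ± 0.31 for late AVFs (SD), so the 18 AVFs held between 0.662 and 2.26 *Il1rn* counts per *Il1b* count. In contralateral veins it was -1.45 ± 4.44 and ran from -7.44 to 4.64, since either count could be near 0. No difference was found by an exact two-sided permutation test, with *p* = 0.291, 0.356, and 0.412 against the veins and 0.701 for late against early AVFs (adjusted over 8 tests, 0.465, 0.470, 0.470, and 0.701). Without the 4 sparse veins the 3 differences from the veins changed sign (-2.05, -1.95, and -2.16). The counts were not scaled for exon length, 5.535 kb for *Il1rn* and 1.907 kb for *Il1b*, so a ratio near 0 is not an equal level. Per kilobase the mean of *Il1rn* was below that of *Il1b*, at 28.0 against 64.7 CPM in early, 17.4 against 39.9 CPM in mid, and 9.28 against 22.9 CPM in late AVFs.

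The ratio of *Il1r2* to *Il1r1* was -1.67 ± 1.52 for contralateral veins and -0.20 ± 1.45 for early, -2.91 ± 0.50 for mid, and -3.38 ± 0.51 for late AVFs (SD, log2). As counts, the median vessel held 0.893 decoy per signalling receptor count in early AVFs and 0.0977 in late AVFs. These counts were not scaled for exon length, 1.908 kb for *Il1r2* and 6.363 kb for *Il1r1*. Per kilobase the means of *Il1r2* and *Il1r1* were 63.8 and 17.7 CPM in early and 6.90 and 20.9 CPM in late AVFs. The difference of late from early AVFs, -3.18, passed an exact two-sided permutation test (*p* = 0.00155, adjusted *p* = 0.0124), with all 5 late AVFs below all 8 early AVFs. This *p* is the smallest that the two-sided permutation test could give for these group sizes. Against contralateral veins the adjusted *p* values of the exact test were 0.208, 0.237, and 0.141 for early, mid, and late AVFs. The late difference from early AVFs was -2.73 (adjusted *p* = 0.0346, exact permutation test) without early AVFs 5 and 6.

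**Figure D3:**
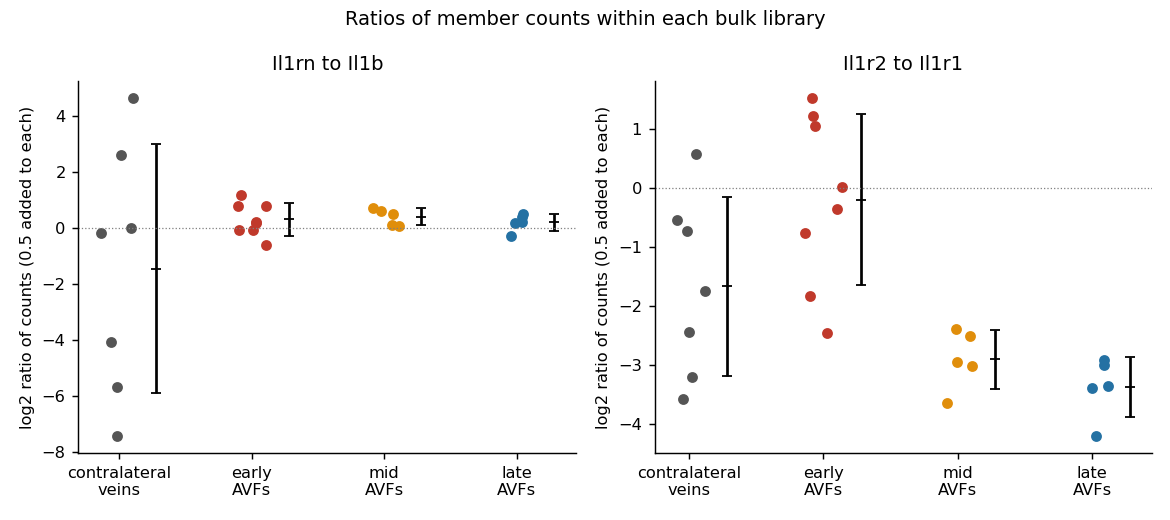
Log2 ratio of *Il1rn* to *Il1b* (left) and of *Il1r2* to *Il1r1* (right) within each vessel, 1 point per vessel by group, with the group mean and SD beside the points. Counts are not scaled for exon length, so 0 does not mark equal levels. The first ratio lies near 0 in the 18 AVFs and scatters from -7.44 to 4.64 in contralateral veins; the second is -0.20 on average in early AVFs and -3.38 in late AVFs, and these do not overlap.

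Levels of different genes were compared per kilobase of exon. In contralateral veins, CPM per kilobase ran from *Il1r2* (40.3 ± 36.5) through *Il33* (35.6 ± 24.5), *Il18* (31.5 ± 40.3), and *Il1r1* (27.6 ± 5.14) to *Il1rap* (4.62 ± 4.94), *Il1b* (3.90 ± 8.45), *Il1rl1* (1.89 ± 1.71), *Il1rn* (0.0515 ± 0.0592), and *Il1a* (0), all with the SD. Of neighbors in this order, *Il1r1* and *Il1rap* did not overlap in range and the others did. In early AVFs the order was *Il1b* (64.7 ± 29.6), *Il1r2* (63.8 ± 43.3), *Il33* (40.5 ± 9.13), *Il18* (30.5 ± 13.0), *Il1rn* (28.0 ± 17.3), *Il1r1* (17.7 ± 5.63), *Il1rl1* (4.22 ± 2.64), *Il1a* (3.51 ± 2.79), and *Il1rap* (3.24 ± 1.01), and each overlapped with the next.

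Mid AVFs ran from *Il33* (59.8 ± 9.01 CPM per kilobase) through *Il1b* (39.9 ± 15.5), *Il1r1* (23.7 ± 4.44), *Il1rn* (17.4 ± 4.32), *Il1r2* (11.01 ± 4.37), and *Il18* (10.5 ± 2.46) to *Il1rap* (4.14 ± 0.735), *Il1a* (2.87 ± 1.26), and *Il1rl1* (2.16 ± 0.900). The ranges of *Il18* and *Il1rap* did not overlap there, and those of the other neighbors did. In late AVFs *Il33* (55.8 ± 23.6) lay above *Il1b* (22.9 ± 2.82) and *Il1r1* (20.9 ± 1.90), which lay above *Il18* (10.8 ± 1.79), *Il1rn* (9.28 ± 2.34), and *Il1r2* (6.90 ± 1.97), and last came *Il1rap* (3.81 ± 0.947), *Il1a* (2.02 ± 0.570), and *Il1rl1* (1.95 ± 0.807). In late AVFs the ranges of neighbors did not overlap between *Il33* and *Il1b*, between *Il1r1* and *Il18*, and between *Il1rap* and *Il1a*.

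The genes most like each member over the 25 libraries were taken by Pearson's *r* of log2 CPM, a description in which the libraries share groups and detection. For *Il1a* they were *Gm15922* (0.969), *Havcr2* (0.968), and *Rgs1* (0.965), for *Il1b* *Cyp4f18* (0.928), *Cdc25c* (0.928), and *Tnfaip2* (0.921), and for *Il1rn* *Acod1* (0.983), *Havcr2* (0.981), and *Slc15a3* (0.979). For *Il33* they were *Xrn1* (0.899), *Nrf1* (0.891), and *Rbbp8* (0.887), and for *Il18* *Xrcc4* (0.917), *Prelid3b* (0.916), and *Inafm1* (0.907). *Il1r1* was most like *Abcc9* (0.857), *Lgi2* (0.842), and *Cpz* (0.820), and *Il1r2* *Hspd1* (0.844), *Psme2* (0.836), and *Psma2* (0.827). *Il1rap* was most like *Acbd5* (0.956), *Mapre1* (0.954), and *Slc26a2* (0.951), and *Il1rl1* *Fbxl5* (0.970), *Eef1e1* (0.965), and *Farsb* (0.959).

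The rest of the pathway was read from 5 lists in early AVFs against contralateral veins. Over all tested genes 12.6% were called either way and 6.17% higher. Of 13 adaptors and kinases, 1 rose and 1 fell, a share near that of all genes: *Myd88*, the adaptor of these receptors, was at 52.8 ± 28.3 CPM in contralateral veins and 124 ± 38.9 CPM in early AVFs, with a log2 fold change by edgeR of 1.23 (SE 0.30, adjusted *p* = 0.00390), and *Peli1*, a ubiquitin ligase of the receptor complex, was at 97.9 ± 54.0 CPM in contralateral veins and 32.5 ± 12.6 CPM in early AVFs, -1.59 (SE 0.37, adjusted *p* = 0.00255). Of 12 NF-κB genes edgeR called 0, with 1 at an unadjusted *p* under 0.05, and DESeq2 and limma voom called 0 as well. The median log2 fold change was -0.15 over the adaptors and 0.12 over the NF-κB genes, against -0.01 over all genes.

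Of 15 processing genes 12 were tested and 2 rose, against 6.17% called higher over all genes. *Nlrp3*, a sensor that assembles the inflammasome, was at 0.111 ± 0.279 CPM in contralateral veins and 8.13 ± 9.63 CPM in early AVFs, with a log2 fold change by edgeR of 6.14 (SE 1.19, adjusted *p* = 0.000406). Being so near 0 in the veins, *Nlrp3* passed the filter on low counts only through the AVFs, so a difference was built into its being tested. *Pycard*, the adaptor that joins such sensors to caspase-1, was at 19.6 ± 11.3 CPM in contralateral veins and 128 ± 112 CPM in early AVFs, 2.70 (SE 0.45, adjusted *p* = 6.94e-05), and every early AVF was above every vein. The list's median was 0.39.

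Other family ligands and receptors were listed by 15 symbols, older and newer names included, of which 11 were in the table and 4 were tested. *Il1f9*, which encodes IL-36γ, was at 0.0634 ± 0.133 CPM in contralateral veins and 30.7 ± 16.5 CPM in early AVFs, and rose by edgeR, on the log2 scale by 8.80 (SE 1.00, adjusted *p* = 3.07e-07). It was called again in mid (8.59, SE 1.01, adjusted *p* = 1.53e-06) and late AVFs (7.18, SE 0.96, adjusted *p* = 1.03e-05), and was above every vein in each AVF group. Being so near 0 in the veins, *Il1f9* passed the filter on low counts only through the AVFs, so a difference was built into its being tested.

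Of 25 genes known to respond to IL-1, 22 were tested, and 8 rose and 1 fell, where 12.6% of all genes were called either way and 6.17% higher, with a median log2 fold change of 3.04 against -0.01 over all genes. The largest changes were in 3 neutrophil chemoattractants, *Cxcl3* at 0.0665 ± 0.147 CPM in contralateral veins and 100.2 ± 137 CPM in early AVFs (10.42, SE 1.12, adjusted *p* = 1.38e-07), *Cxcl5* at 0.583 ± 1.52 CPM in contralateral veins and 252 ± 186 CPM in early AVFs (8.72, SE 1.19, adjusted *p* = 4.81e-06), and *Cxcl2* at 0.316 ± 0.604 CPM in contralateral veins and 67.0 ± 60.6 CPM in early AVFs (7.68, SE 1.16, adjusted *p* = 1.98e-05), all by edgeR. Each had every early AVF above every vein. Being so near 0 in the veins, these 3 passed the filter on low counts only through the AVFs, so a difference was built into their being tested. The gene that fell, *Mmp3*, a matrix metalloproteinase, was at 858 ± 358 CPM in contralateral veins and 179.9 ± 100.3 CPM in early AVFs (-2.25, SE 0.32, adjusted *p* = 1.04e-05) and is named after its values were seen. Many other signals raise these genes too, and by limma voom with quality weights 0 of the 22 were called, with 8 at an unadjusted *p* under 0.05.

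In mid AVFs the same lists held 5 of 22 responsive genes called higher (median 1.92), 1 of 12 processing genes (*Nlrp3*, 4.94, SE 1.17, adjusted *p* = 0.00504 by edgeR), and 1 of 4 other family genes, while *Peli1* was called lower (-1.78, SE 0.44, adjusted *p* = 0.00765), where 2.74% of all genes were called higher and 6.05% either way. In late AVFs 5 responsive genes were called higher (median 1.53), where 2.49% of all genes were, and edgeR called 0 adaptors, 0 NF-κB genes, and 0 processing genes, with 5, 0, and 1 at an unadjusted *p* under 0.05. DESeq2 called 2, 0, and 1 there, and limma voom 1, 0, and 0. As stated above, *Nlrp3*, *Il1f9*, *Cxcl2*, *Cxcl3*, and *Cxcl5* passed the filter on low counts only through the AVFs. A difference was thus built into their being tested, and counts that include them cannot be measured by the share of all genes. Between late and early AVFs edgeR called 0 genes of the responsive list, with 9 at an unadjusted *p* under 0.05, whereas DESeq2 called 1 higher and 4 lower and limma voom 6 lower. *Pycard* had all mid and late AVFs below all early AVFs (by edgeR mid -1.82, SE 0.49, adjusted *p* = 0.0313, late -2.05, SE 0.50, adjusted *p* = 0.0103).

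Single-cell libraries show which cells held these transcripts. Of 11563, 7074, and 7801 barcodes in the contralateral vein, early AVF, and late AVF library, 6319, 4753, and 5821 were kept, with median depths of 2751, 8951, and 15425 UMIs, and pairs of libraries shared 5, 6, and 6 barcodes. Clusters were built without the 9 genes and without the marker genes used to name them, and carry "-like" names from those markers. With 1 library per condition there is no test, the intervals given (95%, exact Poisson for CPM and exact binomial for shares of cells) cover counting error only, and CPM here are of all UMIs of the lineage. Scrublet flagged 0, 2, and 120 cells (0%, 0.0421%, and 2.06%), so it did not work as a doublet caller on the first 2 libraries, and doublets were left in.

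*Il1b* was most abundant in neutrophil-like cells (led by *S100a9* and *S100a8*), at 9650.4 (9232 to 10082) CPM in the contralateral vein, 9049 (8946 to 9154) CPM in the early, and 5156 (5018 to 5297) CPM in the late AVF library, from 63, 782, and 285 cells. At least 1 UMI was found in 90.5%, 94.6%, and 87.0% of them. Neutrophil-like cells thus held *Il1b* at a high level in the vein as well, where they were few.

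In mono/macrophage-like cells (730, 2036, and 1601 cells), *Il1b* was at 49.9 (42.8 to 57.9) CPM in the vein, 2394 (2377 to 2412) CPM in the early, and 1649 (1633 to 1665) CPM in the late AVF library. The share with a UMI was 5.48%, 73.7%, and 60.6%, and with cells thinned to 1000 UMIs 2.60%, 45.6%, and 32.4%. The vein's cells of this lineage lay mostly in a cluster led by *F13a1* and *Cd209f* (598 cells), and those of the AVFs in clusters led by *Il1b* and *Lyz2* or by *Lyz2* and *C1qb*. When each library was clustered on its own the vein value was 127 CPM.

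Dendritic-like cells (43, 143, and 147) held 547, 4773, and 4361 CPM of *Il1b*. As background, smooth muscle-like cells (median depths 7348, 21496, and 25541 UMIs) had a UMI in 2.78%, 36.8%, and 22.04% of cells, and fibroblast-like cells (4347, 31768, and 25099 UMIs) in 1.71%, 42.0%, and 25.2%. Thinned, these were 0%, 2.27%, and 1.60% in smooth muscle-like and 0.383%, 2.44%, and 1.60% in fibroblast-like cells, so the fibroblast signal is read as background.

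Of all *Il1b* UMIs, neutrophil-like cells held 76.7% in the vein, 26.6% in the early, and 8.78% in the late AVF library, and mono/macrophage-like cells 6.66%, 63.7%, and 65.9%. Dendritic-like cells held 21.6% in the late AVF library. Over all cells the level was 89.5, 1969.9, and 609 CPM. These shares depend on which cells survived dissociation.

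**Figure D4:**
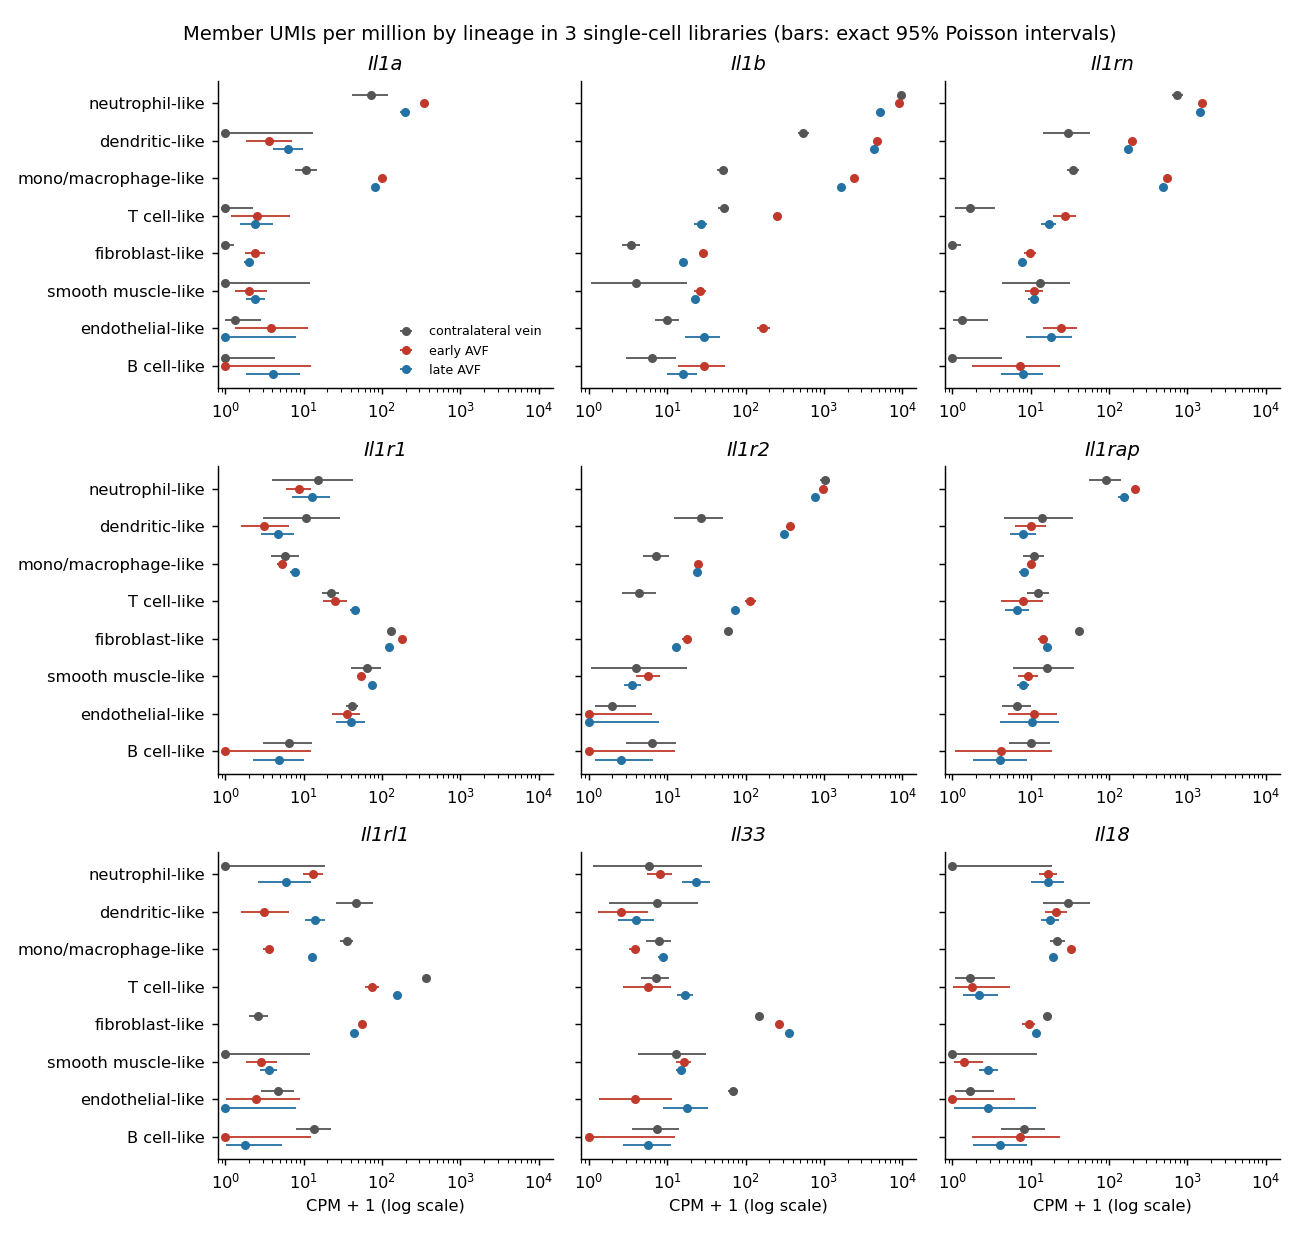
CPM of UMIs with 1 added (horizontal log axis) of each gene in 8 named lineages of the 3 single-cell libraries, with bars of the 95% Poisson interval, which covers counting error only. *Il1a*, *Il1b*, *Il1rn*, and *Il1r2* are highest in neutrophil-like cells, *Il1r1* and *Il33* in fibroblast-like cells, and *Il1rl1* in T cell-like cells. The early T cell-like value of *Il1rl1*, 73.2 CPM as drawn, was 18.5 CPM with cells thinned to 1000 UMIs.

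Among mono/macrophage-like subclusters, the monocyte-like one (507 early and 269 late cells) held the most *Il1b*, 5788 CPM early and 4118 CPM late. The inflammatory ones (945 and 215 cells) held 2109.7 and 2754 CPM, and those left unnamed (79 and 624 cells, in the late library mostly from one led by *Ccl5* and *Oasl1*) 2479 and 1294 CPM. Resident subclusters were at 13.0 CPM in the vein and 205 and 214 CPM in the AVF libraries, but these are not values of the same cells. The 687 resident cells of the vein were mostly in subclusters led by *Cd209f* or by haemoglobin genes (262 and 398 cells), the 505 of the early library mostly in one led by *Saa3* and *Ccl8* (417 cells), and those of the late library mostly in one led by *Slc5a3* and heat shock genes such as *Hsph1*, so a change within a subcluster cannot be read from them.

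For *Il1a* the inflammatory subclusters held the most, 157 CPM early and 234 CPM late. The unnamed ones held 96.8 and 88.0 CPM, the monocyte-like one 54.1 and 37.4 CPM, and the resident ones, which again differ between libraries, 4.54, 5.22, and 4.43 CPM in the vein, early, and late libraries.

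*Il1a* was seen in the same 2 lineages. Neutrophil-like cells held 72.2 (40.4 to 119) CPM in the vein, from 4.76% of 63 cells, 341 (321 to 362) CPM in the early, and 197 (171 to 226) CPM in the late AVF library. Mono/macrophage-like cells held 9.76 (6.76 to 13.6), 98.2 (94.6 to 102), and 81.2 (77.6 to 84.9) CPM. Taken over all cells, *Il1a* was at 1.81, 72.2, and 23.5 CPM in the vein, early, and late libraries. It was thus detected in this vein library, unlike in the bulk veins. In fibroblast-like cells of the vein no UMI was found in 1875 cells, which allows a share of cells with a UMI of up to 0.160% and does not limit the share of cells that express the gene.

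*Il1rn* followed the same lineages. It was at 737 (624.7 to 863), 1552 (1509.6 to 1596), and 1443 (1370.1 to 1519) CPM in neutrophil-like cells and at 34.1 (28.3 to 40.9), 542 (534 to 550.4), and 486 (477 to 495) CPM in mono/macrophage-like cells, in the vein, early, and late libraries. The vein value was carried by few cells, since 28 cells of unnamed subclusters held 90 of the *Il1rn* UMIs, at 315 CPM, and the 687 resident cells were at 7.78 CPM. In the early and late libraries, unnamed subclusters were at 809.5 and 600.5 CPM, the monocyte-like one at 689.6 and 724 CPM, the inflammatory ones at 654 and 585 CPM, and the resident ones at 116 and 109.5 CPM. Endothelial-like cells, as background, had a UMI in 0.123%, 11.8%, and 8.79% of cells, against 2.60%, 65.8%, and 62.5% of mono/macrophage-like cells.

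The cytokine and its antagonist were found in the same cells. Among mono/macrophage-like cells with an *Il1b* UMI, 70.9% (68.5 to 73.2) also had *Il1rn* in the early and 71.2% (68.3 to 74.1) in the late AVF library, against 51.6% (47.3 to 55.9) and 49.0% (45.0 to 52.9) of those without, at median depths of 13259 and 14455 against 12218 and 12361 UMIs. In the vein the shares were 15.0% (5.71 to 29.8) of 40 cells and 1.88% (1.01 to 3.20) of 690 cells, at 6622.5 and 2764 UMIs. In neutrophil-like cells the shares were 73.8% (70.5 to 76.9) with and 59.5% (43.3 to 74.4) without *Il1b* in the early AVF library. In the late library they were 80.2% and 70.3%, and in the vein 45.6% of 57 cells and 33.3% of 6 cells. The intervals overlapped in each library. Median depths were also unequal, at 3494.5 against 2117.5 (early), 3488 against 1150 (late), and 3095 against 694 UMIs (vein).

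*Il1r2* UMIs lay mainly in different lineages in each library. Neutrophil-like cells carried it at 1035 (902 to 1183), 969 (936 to 1004), and 770.4 (718 to 826) CPM, with a UMI in 65.1%, 79.7%, and 73.0% of cells, and dendritic-like cells at 26.1 (11.3 to 51.4), 365 (339 to 394), and 312 (292 to 333) CPM. Fibroblast-like cells held 58.1 (54.0 to 62.4) CPM in the vein, 16.8 (14.5 to 19.3) CPM in the early, and 12.0 (11.04 to 13.0) CPM in the late AVF library. T cell-like cells held 3.40, 114, and 71.9 CPM. In endothelial-like cells a UMI was found in 0.370% of 811 vein cells and in 0 of 76 early and 0 of 91 late cells, which allows shares of cells with a UMI of up to 3.95% and 3.30% and does not limit expression below that depth.

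As a share of all *Il1r2* UMIs, fibroblast-like cells held 72.2% in the vein, neutrophil-like cells 63.3% in the early AVF library, and in the late library no lineage held more than 28.5% (dendritic-like), with 24.2% in neutrophil-like and 18.2% in fibroblast-like cells. Over all cells, *Il1r2* was at 35.7 CPM in the vein, 88.6 CPM in the early, and 33.0 CPM in the late AVF library. The late library was thus close to the vein library, unlike the bulk groups. The fibroblast-like cells of the vein were mostly in a cluster led by *Inmt* and *Sfrp2* (1692 cells) and those of the AVFs in one led by *Ptx3*. Within the vein, the adventitial subcluster (138 cells) held 101 CPM and the quiescent ones (1350 cells) 55.8 CPM, and in the AVF libraries the activated ones (372 and 1038 cells) held 16.8 and 10.4 CPM.

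**Figure D5:**
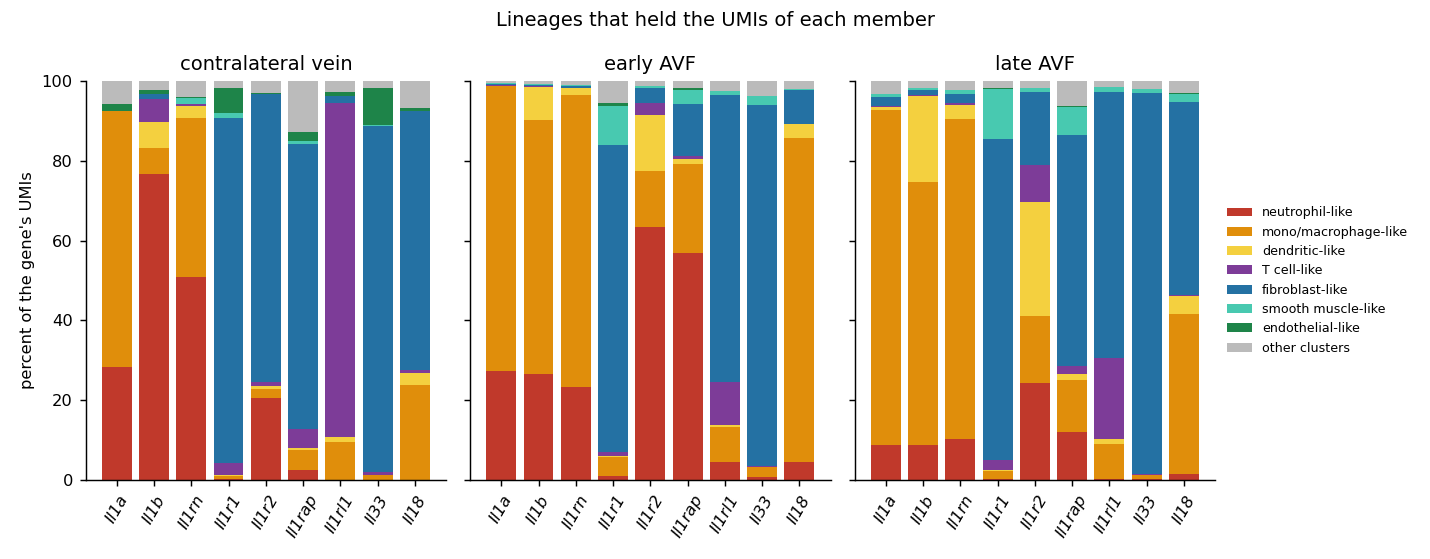
Share of each gene's UMIs (percent, stacked bars) held by each lineage in the contralateral vein, early AVF, and late AVF library. Bars for *Il1r2* are mostly fibroblast-like in the vein (72.2%) and neutrophil-like in the early AVF (63.3%), those for *Il1b* pass from neutrophil-like (76.7%) to mono/macrophage-like cells (63.7%), and those for *Il33* are fibroblast-like throughout.

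*Il1r1* was mainly a fibroblast transcript. Fibroblast-like cells held 130.3 (124 to 137), 177 (169.5 to 185), and 121 (118 to 124) CPM, smooth muscle-like cells 63.1, 53.5, and 73.6 CPM, and endothelial-like cells 41.1, 34.8, and 39.7 CPM. Mono/macrophage-like cells held 4.88, 4.37, and 6.73 CPM, which stands for the background. T cell-like cells held 3.17%, 1.17%, and 2.50% of the *Il1r1* UMIs, against 6.24%, 0.906%, and 0.282% in endothelial-like cells. In the early AVF library T cell-like cells were at 24.4 CPM, and at 49.4 CPM with cells thinned to 1000 UMIs. Fibroblast-like cells gave 86.5%, 76.8%, and 80.5% of the *Il1r1* UMIs, so most UMIs of the receptor lay outside the lineages that held most *Il1a* and *Il1b*.

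Among the lineages whose levels are given here, *Il1rap* was highest in neutrophil-like cells, at 91.5 (55.1 to 143), 210.2 (195 to 227), and 152 (129 to 178) CPM, and was at 40.2 (36.8 to 43.8), 13.5 (11.5 to 15.8), and 15.2 (14.2 to 16.4) CPM in fibroblast-like cells. Other lineages named here, mono/macrophage-like, T cell-like, endothelial-like, dendritic-like, and smooth muscle-like, held between 5.72 and 15.0 CPM. Schwann-like cells, whose level is not given here, held 9.90%, 0.251%, and 2.54% of the *Il1rap* UMIs of the vein, early, and late libraries. In the vein this share was second to that of fibroblast-like cells, 71.7%.

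*Il33* UMIs lay mostly in fibroblast-like cells, which held 86.8%, 90.5%, and 95.5% of its UMIs. Its level in them was 149 (142 to 155) CPM in the vein, 266 (257 to 275) CPM in the early, and 356 (351 to 361) CPM in the late AVF library, and the share with a UMI after thinning was 12.5%, 16.6%, and 23.8%. Endothelial-like cells held 68.7 (59.6 to 78.8), 2.90 (0.351 to 10.5), and 17.0 (7.77 to 32.3) CPM. Neutrophil-like cells, as background, had a UMI in 1.59%, 2.81%, and 7.37% of cells at median depths of 3059, 3456, and 3357 UMIs.

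*Il1rl1* was found mainly in different lineages in the vein and in the AVFs. In the vein 83.9% of *Il1rl1* UMIs were in T cell-like cells (638 cells), at 359 (337 to 381) CPM, and in the early and late AVF libraries 72.0% and 66.8% were in fibroblast-like cells. In fibroblast-like cells the level was 1.62 (1.00 to 2.48), 54.5 (50.3 to 58.9), and 43.1 (41.3 to 45.0) CPM, and in T cell-like cells of the AVF libraries 73.2 (59.1 to 89.7) and 155 (143 to 167) CPM. With cells thinned to 1000 UMIs, the early T cell-like value was 18.5 CPM. The activated fibroblast subclusters held 59.1 and 69.0 CPM in the early and late AVF libraries, and the quiescent ones of the vein 0.774 CPM. Few vein cells fell in activated subclusters, mostly in one whose leading genes include leukocyte genes such as *Tyrobp* and *Cd52*, so no vein value is set beside these. Smooth muscle-like cells, as background, held 0, 1.86, and 2.60 CPM.

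*Il18* was low in every lineage. Mono/macrophage-like cells held 20.9 (16.4 to 26.3), 31.2 (29.2 to 33.3), and 18.5 (16.8 to 20.3) CPM, dendritic-like cells 29.3, 20.2, and 16.8 CPM, and fibroblast-like cells 15.3, 8.44, and 10.8 CPM, against 0.680, 0.787, and 1.19 CPM in T cell-like cells. In the vein the adventitial fibroblast subcluster held 65.8 CPM (42.0% of 138 cells) and the quiescent one 9.09 CPM. Mono/macrophage-like cells gave 23.9%, 81.2%, and 40.0% of its UMIs and fibroblast-like cells 65.0%, 8.63%, and 48.2%.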

How the data were processed

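Bulk gene counts were deposited by the authors as whole numbers per gene and library. The submitters' processing notes name STAR, Cell Ranger, mm10, and GRCm38 without roles, and which counter was used, stranded or not, is not given in the sources used here. For single cells, UMI counts were deposited by the authors as Cell Ranger 6.0.2 matrices. The 25 bulk libraries are single vessels grouped by the labels, so *p*-values measure the spread between these samples.

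Genes with a mean normalized count of at least 100 were tested in edgeR 4.0.16 (R 4.3.3; TMM scaling, quasi-likelihood test, all groups in 1 fit, Benjamini-Hochberg adjustment). DESeq2 1.42.0 and limma 3.58.1 served as alternatives, as did other scalings and filters, sex, and left-out libraries. Of the identifiers, 32210 were named from the single-cell gene lists, 19962 from the reference, and 4808 had no symbol. Ratios were tested with scipy 1.17.1. Fits were tested on simulated counts.

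Cells with 200 to 6000 genes and at most 10% mitochondrial UMIs were clustered in scanpy 1.11.5 (2000 variable genes, 12 components, 20 neighbors, resolution 0.5, leidenalg 0.10.2). Intervals cover counting error only.

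Named genes were the 9 members, the 3 genes most correlated with each, and up to 3 called genes per pathway list by the size of the early change. The members and lists were chosen with earlier results of these data known.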

Additional observations from a re-analysis of the deposited data

Results flagged for a closer look

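Among 43 groups of 4 to 10 libraries, 7 held a library far from the others by Dixon's test, where chance gives about 1 in 20. Contralateral vein 34 was at 43.4 CPM for *Il1b* (the nearest vein was at 7.88 CPM) and at 124 CPM for *Il18* (nearest 32.2 CPM). Contralateral vein 31 was at 170.3 CPM for *Il1rap* (nearest 61.6 CPM). Both are sparse libraries, with 13.5% and 17.5% of the tested genes without a count, and the part of this in the values was not tested.

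Early AVF 6 was at 369.6 CPM for *Il1rn* (nearest 199 CPM), and early AVF 5 was at 69.6 CPM for *Il1rl1* (nearest 39.6 CPM). Late AVF 17 was at 279.9 CPM for *Il33* (nearest 147 CPM) and at 14.4 CPM for *Il18* (nearest 10.5 CPM).

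*Il1r2* differed between late and early AVFs in the same contrast with contralateral veins, with a log2 difference of -3.21 by edgeR (SE 0.63, adjusted *p* = 0.00354), and was lower in 5 of 5 late AVFs than in every early AVF.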

How the results depend on the processing

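No paired analysis was possible because the replicate numbers are library numbers that the groups do not share. The 3, 2, and 3 members called in early, mid, and late AVFs against veins became 1, 1, and 1 in female mice or with only the 2 groups compared in the fit, and 0, 0, and 0 by limma voom with quality weights. In the first 2 of these settings *Il1a* fell under the filter on low counts and was not tested. *Il1b* in early and *Il1r2* in late AVFs were tested there by edgeR and not called. Their adjusted *p* values were 0.171 and 0.214 in female mice, and 0.0499 and 0.0469 with only the 2 groups. At an adjusted *p* under 0.05, 4 were called in mid AVFs. In late against early AVFs the 1 call became 2 by DESeq2, 4 by limma voom, 3 with only both groups in the fit, 4 without the 4 sparse veins, 0 without the 2 sparse early AVFs, and 0 in female mice. In mid against early AVFs the 0 calls became 1 by DESeq2, 2 by limma voom, and 1 at an adjusted *p* under 0.05. Leaving out 1 library gave 2 to 3 calls in early, 2 to 3 in mid, and 2 to 4 in late AVFs against veins, 0 to 1 in mid and in late against early AVFs, and 0 to 0 in late against mid AVFs. The sparse libraries were left out after seeing the data. The cause was not tested.

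Signs turned for uncalled values. *Il18* in early AVFs was 0.046 with sex as a term, 0.65 by limma voom, and 0.83 without the sparse veins. Without those veins *Il33* in early AVFs was -0.29, *Il1rl1* -0.015 in mid and -0.15 in late AVFs, and the *Il1rn* to *Il1b* ratio -2.05, -1.95, and -2.16. *Il1rap* in late against mid AVFs was 0.042 in female mice. With 1 library left out against veins, *Il1rap* ran from -0.71 to 0.13 in early, -0.36 to 0.60 in mid, and -0.47 to 0.48 in late AVFs, *Il18* from -0.34 to 0.89 in early, and *Il1rl1* from -0.022 to 0.64 in mid and -0.22 to 0.49 in late AVFs. In late against mid AVFs *Il1rap* ran from -0.23 to 0.00035, *Il1rl1* from -0.42 to 0.040, *Il33* from -0.38 to 0.014, and *Il18* from -0.067 to 0.18. The *Il1rn* to *Il1b* ratio in late against early AVFs ran from -0.23 to 0.020.

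Over all genes, calls in early AVFs against veins numbered 1599 and ran from 327 in female mice to 3938 with no filter, in mid from 192 to 2823 (767), and in late from 173 to 2696 (676). In late against early AVFs they ran from 0 to 1451 (381), in mid against early from 0 to 636 (1), and in late against mid from 0 to 25 (0).

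Of single-cell levels with at least 20 UMIs, 8 of 115 moved over 1.5-fold when each library was clustered on its own, 6 of 116 at a mitochondrial limit of 20%, 24 of 116 after thinning, 1 of 116 without Scrublet doublets, and 0 of 105 at resolution 1.0. The largest was *Il1b* in T cell-like cells of the vein, 51.7 against 1.15 CPM. *Il1rl1* in T cell-like cells of the early AVF went from 73.2 to 18.5 CPM after thinning. Depth differed between single-cell libraries.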
